A study of Homo sapiens with 4 samples.

Results

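Homologous recombination copies an intact sister strand to mend a broken chromosome, and the Fanconi pathway unhooks strands that a crosslinking agent has tied together. Both draw on one set of proteins: sensor kinases, nucleases that trim the break, the BRCA proteins that prepare the trimmed strand for pairing, and the Fanconi core complex that ubiquitinates FANCD2 and FANCI. Many of these genes are E2F targets whose RNA is high in dividing cells, and inherited loss of several predisposes to breast and ovarian cancer. The 35 genes described here were chosen by name, from the gene names of the pulldown and mimic tables, after both comparisons had been seen. Of these, 34 were found among 16489 gene names in all. MRE11A, the nuclease partner of RAD50 and NBN, is not analysed here.

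The libraries were made from HEK293T, a line derived from human embryonic kidney and expressing SV40 large T antigen, which binds p53 and RB. miR-34a is a microRNA that p53 induces, and a mimic is a synthetic duplex that supplies it. RNA recovered with biotin-labelled miR-34a was set against RNA recovered with a control that the submitters label NC, and total RNA after a miR-34a mimic against total RNA after an NC mimic. Each of the 4 groups had 1 library, with 546180 reads in the pulldown with miR-34a and 306996 in its control. The total RNA libraries held 42679778 reads with the miR-34a mimic and 45493090 with the control mimic. No replicate check and no p-value are possible, and the same comparisons chose the genes, so every ratio below is a description of these libraries. All 7 HEK293T markers examined were listed in the total RNA. With the mimic NEFL, KRT8, KRT18 and PAX2 stood higher, at log2 ratios between 0.51 and 0.86, while VIM, NEFM and IRS4 stood lower, IRS4 with 14 reads with the miR-34a mimic and 887 with the control mimic. Of 9 markers of blood, liver, fibroblast and endothelial cells, 6 were listed. The fibroblast genes went both ways: COL1A1 had 1344 reads with the miR-34a mimic and 1052 with the control mimic, PDGFRB 124 and 52, and COL3A1 248 and 416. LYZ had 139 reads with the miR-34a mimic and 133 with the control mimic, and PECAM1 and ALB at most 16 in either.

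The sequence that links both arms is the mature miR-34a strand, shown here beside its relatives because a microRNA finds its targets mainly through its seed. Seed bases 2 to 8 are in capitals, and the sequences are those of RefSeq on GRCh38.p14.
hsa-miR-34a-5p: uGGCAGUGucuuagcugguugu
hsa-miR-449a: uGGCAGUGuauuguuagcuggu
hsa-miR-449b-5p: aGGCAGUGuauuguuagcuggc
hsa-miR-34b-5p: uAGGCAGUgucauuagcugauug
hsa-miR-34a-3p: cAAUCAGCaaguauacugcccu
The miR-34a-5p seed GGCAGUG was found in 3 of the 2545 mature miRNAs available here, the first 3 shown. The relative miR-34c-5p was not among those 2545, so its seed was not compared and the count may be incomplete. miR-34b-5p carries the same letters moved by 1 base. The passenger strand miR-34a-3p has another seed. The labels do not say which strand carried the biotin. A message with a full match to the miR-34a-5p seed would read CACUGCC; matches in the members' messages were not analysed here.

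Ratios set miR-34a over its control, as log2 values, and were computed from reads summed over the transcripts of a gene and scaled by library. Brackets give the 95% counting interval, which covers counting error in these libraries only. In the pulldown a gene is called higher or lower from 2-fold on. With the mimic it is called lower when at least 20% lower, and higher when at least 25% higher, the same size on the log2 scale. An interval that excludes a ratio of 1 is said to be beyond counting error.

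In the pulldown the set stood high. Together its 30 listed genes took 3151 RPM (reads per 1000000 library reads) [2944 to 3369] of the miR-34a pulldown and 1091 RPM [932 to 1270] of the control pulldown, a log2 ratio of 1.56 [1.32 to 1.81]. Of the 26 members with at least 20 reads, 19 were called higher and 0 lower, and the median log2 ratio was 1.89. Over all 6253 such genes 12.3% were called higher and 5.74% lower, with a median of 0.11. Beyond counting error 17 members were higher and 0 lower, where 7.08% and 3.66% of all genes were. Over all 30 listed members 20 were called higher and 0 lower, with a median of 1.76, where 12.2% and 13.9% of all listed genes were called. Because the same comparison chose the genes, nothing is read from these shares. RBBP8, RAD51B, FANCB and FANCL are not in the pulldown table, which lists only transcripts with a control read.

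**Figure D1:**
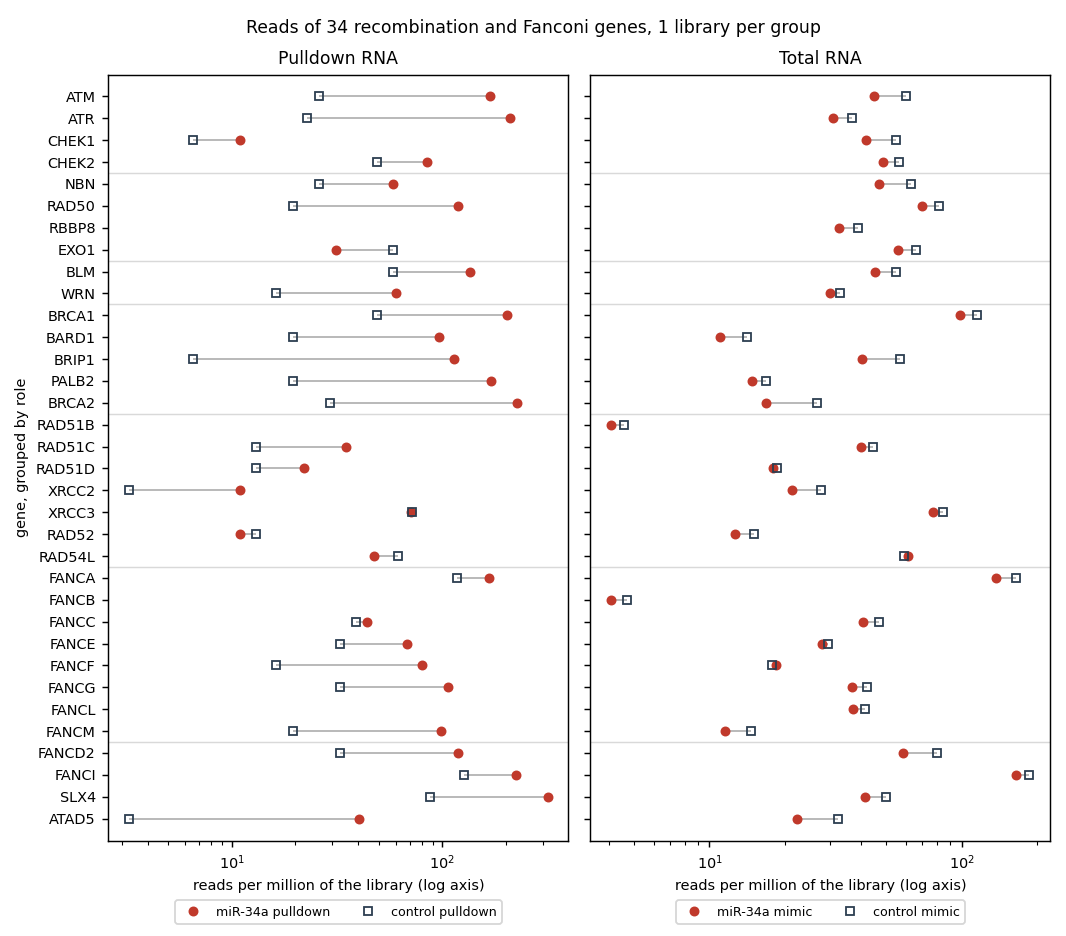
RPM of each library (log axis) for the 34 genes, with pulldown RNA on the left and total RNA on the right. Filled circles are the miR-34a libraries and open squares the control libraries, 1 library each; grey lines join the pair of a gene and horizontal rules separate the roles. In the pulldown most circles lie to the right of their squares, whereas in total RNA most lie a short way to the left.

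Control counts were low, and they decide how the ratios can be read. The members had 6 to 173 reads in the miR-34a pulldown (median 49.5) and 1 to 39 in the control pulldown (median 8.0). Of the 26 measured members 13 had fewer than 10 control reads, so they passed the minimum through the miR-34a library. At their control reads 10 could pass only with a log2 ratio above 0: ATR, RAD50, WRN, BARD1, BRIP1, PALB2, RAD51C, FANCF, FANCM and ATAD5. Of those, 3 could pass only if at least 2-fold higher: BRIP1, RAD51C and ATAD5. Only 4 members reached 20 reads in the control library alone. With at least 10 control reads required instead, a filter chosen after seeing the data, 6 of 13 members were called higher, against 4.41% of all genes. The median of those 13 was 0.85.

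The BRCA group was the highest by role, with 5 of 5 members called and beyond counting error. Over all measured genes 12.3% were called higher and 7.08% were higher beyond counting error. At their control reads BRIP1, PALB2 and BARD1 could pass the read minimum only with a log2 ratio above 0. Nothing is therefore read from the count of 5. BRIP1, a helicase that binds BRCA1 (chromosome 17, 61679139 to 61863528 on GRCh38.p14), had 62 reads in the miR-34a pulldown and 2 in the control pulldown, a log2 ratio of 4.16 [1.57 to 9.51]. PALB2, which bridges BRCA1 and BRCA2 (chromosome 16, 23603165 to 23641310), had 93 and 6 reads in the miR-34a and control pulldowns, a log2 ratio of 3.16 [1.52 to 5.49]. BRCA2, which acts on resected single-stranded DNA (chromosome 13, 32315077 to 32400268), had 124 reads in the miR-34a pulldown and 9 in the control pulldown, at 2.99 [1.63 to 4.77]. The few control reads set the width of these 3 intervals, all of which lie above 0. BARD1, the ubiquitin ligase partner of BRCA1 (chromosome 2, 214725646 to 214809683), had 53 reads in the miR-34a pulldown and 6 in the control pulldown, at 2.35 [0.64 to 4.71]. BRCA1 itself (chromosome 17, 43044295 to 43170327) had 111 and 15 reads in the miR-34a and control pulldowns, at 2.09 [0.99 to 3.42]. Summed, the 5 genes had 443 reads in the miR-34a pulldown and 38 in the control pulldown, a log2 ratio of 2.75 [2.07 to 3.51].

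BRCA1 was listed as 5 transcripts in the pulldown, and each was higher with miR-34a. Their log2 ratios ran between 1.01 and 3.49, the highest being NM_007297 with 39 reads in the miR-34a pulldown and 2 in the control pulldown. The intervals of NM_007298, NM_007299 and NM_007300, with 1 to 8 control reads, hold 0. The 5 transcripts share most of their sequence, and the sources used here do not give how shared reads were assigned. On the most-read transcript alone BRCA1 would be at 3.49. BRCA1 also has the partial copy BRCA1P1, which can share reads.

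Both sensor kinase genes were called higher; of the effector kinase genes CHEK2 was not, and CHEK1 had too few reads. ATR, which answers to single-stranded DNA at stalled forks (chromosome 3, 142449235 to 142578733), had 115 reads in the miR-34a pulldown and 7 in the control pulldown, a log2 ratio of 3.24 [1.72 to 5.34]. ATM, which answers to broken ends (chromosome 11, 108223067 to 108369102), had 92 and 8 reads in the miR-34a and control pulldowns, at 2.73 [1.27 to 4.66]. CHEK2, the checkpoint kinase downstream of ATM, had 46 reads in the miR-34a pulldown and 15 in the control pulldown, at 0.82 [-0.42 to 2.24], an interval that holds 0. CHEK2 has 6 named pseudogenes that can share its reads. CHEK1, the kinase downstream of ATR, had 6 and 2 reads in the miR-34a and control pulldowns, under the minimum.

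Break sensing and end resection genes were mixed. RAD50, the ATPase of the MRN complex, had 65 reads in the miR-34a pulldown and 6 in the control pulldown, a log2 ratio of 2.64 [0.97 to 4.99]. NBN, its adaptor subunit, had 32 and 8 reads in the miR-34a and control pulldowns, at 1.20 [-0.43 to 3.24], called by fold but not beyond counting error. EXO1, the exonuclease that extends resection, had 17 reads in the miR-34a pulldown and 18 in the control pulldown, at -0.88 [-2.42 to 0.65], the lowest ratio of the set. The RecQ helicases BLM and WRN, mutated in Bloom and Werner syndromes, were both called. BLM had 74 and 18 reads in the miR-34a and control pulldowns, at 1.24 [0.17 to 2.48], and WRN had 33 and 5, at 1.93 [0.01 to 4.64]. The WRN interval barely excludes 0 and holds it on library totals.

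Strand exchange genes were the group with the smallest difference in the pulldown. Summed over 6 listed genes they had 108 reads in the miR-34a pulldown and 54 in the control pulldown, a log2 ratio of 0.20 [-0.49 to 0.93]. RAD51C, which forms a complex with XRCC3, had 19 and 4 reads in the miR-34a and control pulldowns and was the 1 of 3 measured members called, at 1.45 [-0.80 to 4.69]. At 4 control reads RAD51C could pass the read minimum only if at least 2-fold higher, so nothing is read from its call. XRCC3 had 39 and 22 reads in the miR-34a and control pulldowns, at 0.03 [-1.11 to 1.24]. RAD54L, a translocase that helps a strand invade a duplex, had 26 and 19 reads, at -0.34 [-1.66 to 1.03]. RAD51D, XRCC2 and RAD52 had 6 to 12 reads in the miR-34a pulldown and 1 to 4 in the control pulldown, all under the minimum of 20 together. At this depth no measured strand exchange gene was beyond counting error.

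In the Fanconi core group, 4 of 6 measured members were called and 3 were beyond counting error, against 12.3% and 7.08% of all measured genes. FANCM and FANCF could pass the read minimum only with a log2 ratio above 0, so nothing is read from these counts. FANCM, the translocase that anchors the core to DNA (chromosome 14, 45135930 to 45200890), had 54 reads in the miR-34a pulldown and 6 in the control pulldown, a log2 ratio of 2.37 [0.67 to 4.74]. FANCF, an adaptor of the core (chromosome 11, 22622533 to 22625823), had 44 and 5 reads in the miR-34a and control pulldowns, at 2.34 [0.48 to 5.03]. FANCG, which binds FANCA, had 58 and 10 reads, at 1.74 [0.35 to 3.47]. FANCE, which contacts FANCD2, was called at 1.09 [-0.38 to 2.87], with 37 and 10 reads. The core subunits FANCA and FANCC were not called, at 0.54 [-0.27 to 1.42] and 0.20 [-1.32 to 1.90]; the upper quartile of all measured genes was 0.56. FANCA had 91 reads in the miR-34a pulldown and 36 in the control pulldown, enough to give one of the narrower intervals.

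The 4 genes that act after the core were all higher beyond counting error, as were 7.08% of all measured genes. ATAD5 could pass the read minimum only if at least 2-fold higher, so nothing is read from this count. SLX4, the scaffold of crosslink-cutting nucleases (chromosome 16, 3581181 to 3611606), had 173 reads in the miR-34a pulldown and 27 in the control pulldown, a log2 ratio of 1.88 [1.05 to 2.83]. Its whole interval lies above 2-fold, as do those of ATR, BRCA2, BRIP1, PALB2 and ATM. FANCD2, the ubiquitinated clamp (chromosome 3, 10026437 to 10101932), had 65 and 10 reads in the miR-34a and control pulldowns, at 1.90 [0.54 to 3.62], and has 2 named pseudogenes. Its clamp partner FANCI had 122 and 39 reads, at 0.85 [0.09 to 1.67], under the 2-fold call. ATAD5, which unloads PCNA from DNA (chromosome 17, 30831966 to 30895869), had 22 reads in the miR-34a pulldown and 1 in the control pulldown, at 3.66 [0.16 to 13.75]. With 1 control read the size of that ratio is nearly open upwards.

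**Figure D2:**
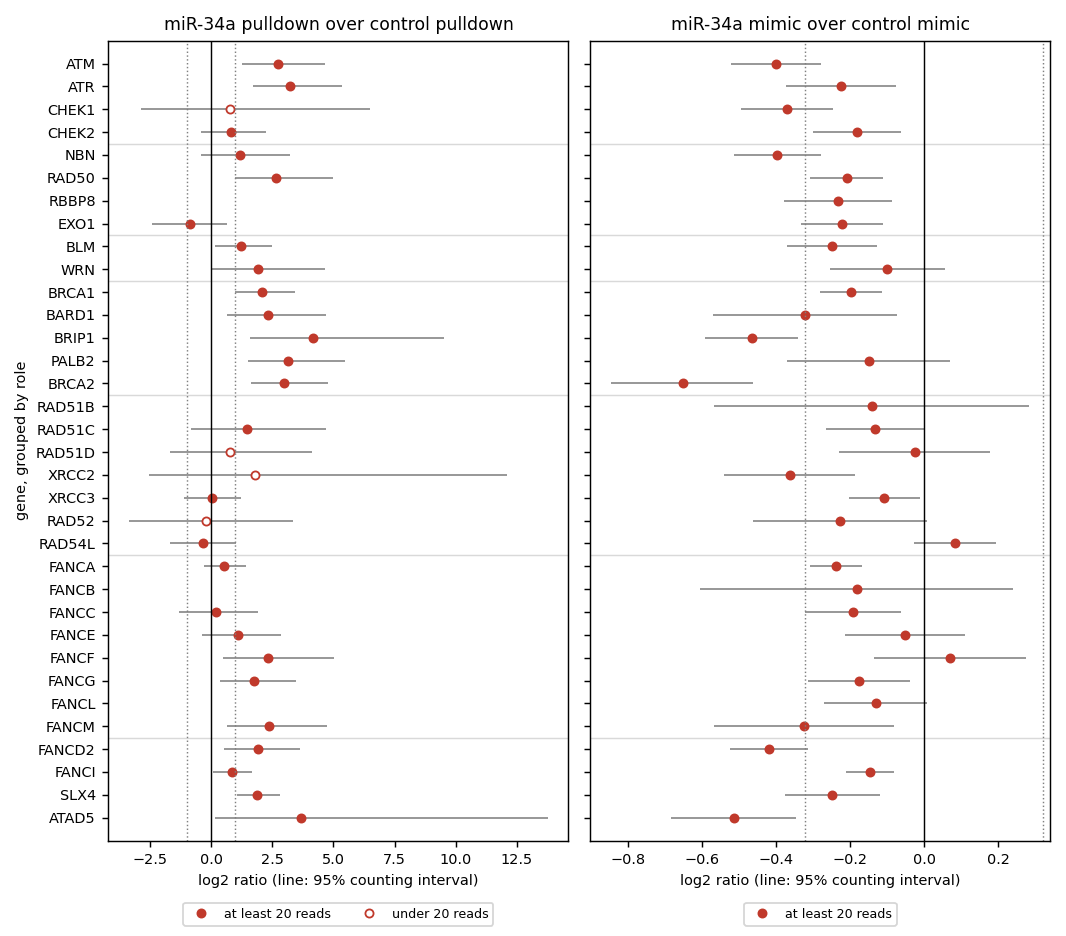
Log2 ratio of each gene (points) with its 95% counting interval (lines), for the miR-34a pulldown over the control pulldown on the left and the miR-34a mimic over the control mimic on the right; open points had under 20 reads, dotted lines mark the fold used for a call, and the axes differ in scale. Pulldown ratios reach 4.16 for BRIP1 with wide intervals, and mimic ratios run between -0.65 for BRCA2 and 0.08 for RAD54L with narrow ones.

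The pulldown of each arm was also set against total RNA, with the same reads as the ratios of both comparisons. A gene's share of the pulldown reads was divided by its share of the total RNA reads of the same arm. In the miR-34a arm 23 of 30 members had a larger share of the pulldown than of total RNA, with a median log2 of 0.93, whereas over all genes the median was -0.38 and 36.3% were above 0. Other genes found on many clinical cancer panels, described below, had a median of 0.93 in that arm, with 77.2% above 0. In the control arm 22 of 30 members (73.3%) had a smaller share, as did 59.3% of all genes, with medians of -0.43 and -0.28. The same reads chose the genes, so nothing is read from these counts and medians. These shares carry no interval, and the control values of the genes named here, except SLX4 and EXO1, rest on 1 to 9 reads. BRCA2 would have had 9.14 reads in the miR-34a pulldown and 8.21 in the control pulldown at its total RNA share, and had 124 and 9. SLX4 would have had 22.6 and 15.4 reads in the miR-34a and control pulldowns, and had 173 and 27. For both, as for PALB2, BARD1 and FANCM, the log2 share over total RNA was between 2.93 and 3.76 in the miR-34a arm and between 0.13 and 0.81 in the control arm.

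In BRIP1, ATAD5 and RAD50 the control share was low, on 2, 1 and 6 control pulldown reads. Those reads also entered the choice of genes, so no pattern is read from them. BRIP1 would have had 22.1 reads in the miR-34a pulldown and 17.4 in the control pulldown, and had 62 and 2, log2 shares over total RNA of 1.49 in the miR-34a arm and -3.13 in the control arm. ATAD5 had log2 shares over total RNA of 0.86 in the miR-34a arm and -3.31 in the control arm, and RAD50 of 0.78 and -2.06. CHEK1 was below its total RNA share in both arms, at -1.93 and -3.08, with 6 of an expected 22.9 reads in the miR-34a pulldown and 2 of an expected 16.9 in the control pulldown. EXO1 also had fewer reads than its total RNA share in both, at -0.84 and -0.18. Its control pulldown held 18 of an expected 20.3 reads, a small difference.

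**Figure D3:**
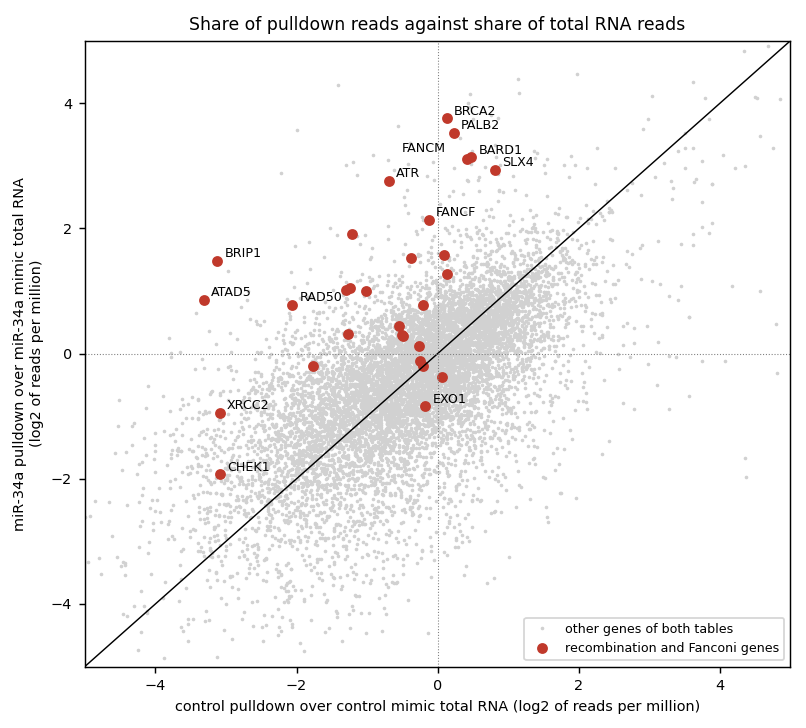
For each gene, the log2 share of pulldown reads over total RNA reads in the miR-34a arm (vertical) against the same in the control arm (horizontal), 1 library each; red points are the set, grey points other genes in both tables, and 95 other genes lie beyond the axes. Most red points lie above the diagonal of equal shares, with BRCA2 and PALB2 high in the miR-34a arm and BRIP1 and ATAD5 low in the control arm.

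Total RNA after the mimic was read for the same genes, which were chosen with its values known as well. With the mimic the set stood slightly low: 32 of 34 members had a log2 ratio below 0, against 50.4% of all 14787 measured genes, and the median was -0.22 against 0.00. Together the 34 genes took 1465 RPM [1449 to 1481] with the miR-34a mimic and 1740 [1723 to 1758] with the control mimic, a log2 ratio of -0.22 [-0.25 to -0.20]. Called lower were 9 members, where 12.6% of all genes were called lower and 17.4% higher, and 0 members were called higher. Beyond counting error 23 members were lower and 0 higher, where 23.1% of all genes were lower and 25.3% higher. Members had 208 to 8466 control reads, and among genes in that range 9.41% were called lower and 27.3% were lower beyond counting error. Because this comparison also chose the genes, nothing is read from these shares. In RNA from whole cultures, fewer cells that express a gene and less RNA per cell cannot be told apart.

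The lowest mimic ratios were those of BRCA2, ATAD5 and BRIP1. BRCA2 had 714 reads with the miR-34a mimic and 1217 with the control mimic, a log2 ratio of -0.65 [-0.84 to -0.46], or 36.4% lower. It was the only member at least 1.5-fold lower. ATAD5 had 950 reads with the miR-34a mimic and 1472 with the control mimic, at -0.51 [-0.68 to -0.35]. BRIP1 had 1727 and 2586 reads with the miR-34a and control mimics, at -0.47 [-0.59 to -0.34], 27.6% lower. Within its role, BRIP1 was followed by BARD1 with 471 and 638 reads, at -0.32 [-0.57 to -0.07], just short of the call. BRCA1 had 4209 and 5234 reads with the miR-34a and control mimics, at -0.20 [-0.28 to -0.11], with all 6 listed transcripts below 0. The intervals of its transcripts NM_007299 and NR_027676 hold 0. PALB2, at -0.15 [-0.37 to 0.07], was not beyond counting error despite its pulldown ratio.

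All 4 kinase genes were lower beyond counting error with the mimic, as were 23.1% of all measured genes. They were chosen with these values known, so nothing is read from the count. ATM had 1912 reads with the miR-34a mimic and 2736 with the control mimic, a log2 ratio of -0.40 [-0.52 to -0.28]. CHEK1 had 1786 and 2503 reads with the miR-34a and control mimics, at -0.37 [-0.50 to -0.24], with all 6 transcripts below 0. The intervals of its transcripts NM_001114122 and NR_045205 hold 0. ATR at -0.22 [-0.37 to -0.08] and CHEK2 at -0.18 [-0.30 to -0.06] were lower by less than the fold used for a call. The order of the kinases in the pulldown, where ATR was highest, was not their order here.

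The measured resection genes were all lower as well, and nothing is read from that either. NBN had 2001 reads with the miR-34a mimic and 2857 with the control mimic, a log2 ratio of -0.40 [-0.51 to -0.28]. RBBP8, which starts resection, was at -0.23 [-0.38 to -0.09], EXO1 at -0.22 [-0.33 to -0.11] and RAD50 at -0.21 [-0.31 to -0.11]. BLM had 1944 and 2504 reads with the miR-34a and control mimics, at -0.25 [-0.37 to -0.13], and WRN was at -0.10 [-0.25 to 0.05].

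Strand exchange genes again differed least. Summed over 7 genes their log2 ratio was -0.09 [-0.15 to -0.04], the smallest of the 7 roles. XRCC2, which works with RAD51D, was the exception, with 903 reads with the miR-34a mimic and 1260 with the control mimic, at -0.36 [-0.54 to -0.19]. RAD54L had 2629 and 2692 reads with the miR-34a and control mimics, at 0.08 [-0.03 to 0.19], 1 of the 2 members above 0. XRCC3, RAD51C, RAD51B, RAD51D and RAD52 lay between -0.23 and -0.03, and of these XRCC3 alone was beyond counting error, at -0.11 [-0.20 to -0.01].

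Among the genes named for Fanconi proteins FANCD2 had the lowest mimic ratio. FANCD2 had 2505 reads with the miR-34a mimic and 3632 with the control mimic, a log2 ratio of -0.42 [-0.52 to -0.31]. SLX4 had 1768 and 2277 reads with the miR-34a and control mimics, at -0.25 [-0.38 to -0.12], and FANCI was at -0.15 [-0.21 to -0.08]. In the core FANCM was called, with 491 and 667 reads with the miR-34a and control mimics, at -0.32 [-0.57 to -0.08], just inside the fold. FANCA at -0.24, FANCC at -0.19 and FANCG at -0.17 were lower beyond counting error. FANCE, FANCL and FANCB, at -0.05, -0.13 and -0.18, were not, and FANCF stood at 0.07 [-0.13 to 0.27]. FANCB had only 174 and 214 reads with the miR-34a and control mimics.

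Genes high in the pulldown and low with the mimic are those the study's comparison of approaches bears on. Of 26 members measured in both, 7 were called higher in the pulldown and lower with the mimic: BRCA2, BRIP1, FANCD2, FANCM, ATM, NBN and ATAD5. Of all 6239 genes measured in both, 0.994% were. By intervals in place of folds, 14 members were in both sets, where 2.77% of all genes were. The members were chosen with both comparisons known, so nothing is read from these shares. Of the 7 genes 6 had fewer than 10 control pulldown reads. With at least 10 required, 1 member by fold, FANCD2, and 6 by interval were in both sets. No strand exchange gene is among the 7, but only 3 of those 7 genes were measured in the pulldown, and XRCC2, with 6 reads in the miR-34a pulldown and 1 in the control pulldown, would join without the read minimum. The arms did not rank the members alike: PALB2, ATR and FANCF were among the higher pulldown ratios and had mimic ratios of -0.15, -0.22 and 0.07.

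For the rest of the pathway the pulldown median lay near that of all genes, while most genes stood lower with the mimic. Of 54 other recombination and Fanconi genes, 25 were measured in the pulldown, with a median log2 ratio of 0.05. Of these 4 (16%) were called higher, near the 12.3% of all measured genes. RECQL4, a RecQ helicase, had 166 reads in the miR-34a pulldown and 27 in the control pulldown, at 1.82 [0.98 to 2.77]. ERCC4, the nuclease that SLX4 recruits, had 67 and 13 reads in the miR-34a and control pulldowns, at 1.57 [0.34 to 3.05]. CDK12, a kinase needed to transcribe long repair genes, was at 1.27 [0.63 to 1.97]. USP1, which deubiquitinates FANCD2, was the other, with 29 and 7 reads in the miR-34a and control pulldowns and an interval that holds 0.

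With the mimic 51 of those 54 genes were measured, 42 lay below 0 and the median was -0.15. Of these 10 (19.6%) were called lower and 0 higher, against 12.6% and 17.4% of all measured genes. The lowest were the meiotic recombination gene MND1 at -0.75 [-1.03 to -0.48], the translesion polymerase gene REV3L at -0.54 [-0.68 to -0.40] and the helicase gene HELB at -0.43 [-0.76 to -0.11]. MAD2L2, the REV3L partner, was higher at 0.28 [0.20 to 0.36]. Genes of break signalling and end joining differed less: 19 of 25 lay below 0, with a median of -0.03. RNF168 at -0.37 and PRKDC at -0.33 were the 2 called lower, or 8% of the 25. In the pulldown 1 of 19 such genes (5.26%) was called higher, against 12.3% of all measured genes. It was the poly(ADP-ribose) polymerase gene PARP2 at 1.01 [-0.16 to 2.36]. PARP1 stood at 0.75 [0.45 to 1.05] and the scaffold gene TRRAP was lower, at -0.38 [-0.72 to -0.03].

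One property that the rule did not use moved with the pulldown ratio. A list of 337 genes found on many clinical cancer panels, written from general knowledge with earlier results known, holds 32 of the 35. Panel genes other than the members had a median pulldown log2 ratio of 1.06, and 117 of 228 were called higher. Among genes off the list the median was 0.08 and 10.5% were called. The panel members of the set had a median of 1.89, with 18 of 24 called. With at least 10 control reads the members had a median of 0.85, with 6 of 13 called, and the other panel genes a median of 0.77, with 57 of 163 called. In the other recombination list 3 of 6 panel genes were called and 1 of 19 others. Off the list the set holds RBBP8, EXO1 at -0.88 and ATAD5 at 3.66. Relative to total RNA, the other panel genes had a median log2 share of 0.93 in the miR-34a arm and -0.17 in the control arm. With the mimic the other panel genes had a median of -0.06, and 37 of 277 were called lower; panel members of the set had a median of -0.20 and the 3 others -0.51, -0.23 and -0.22. The part of panel membership in the pulldown ratios was not tested.

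**Figure D4:**
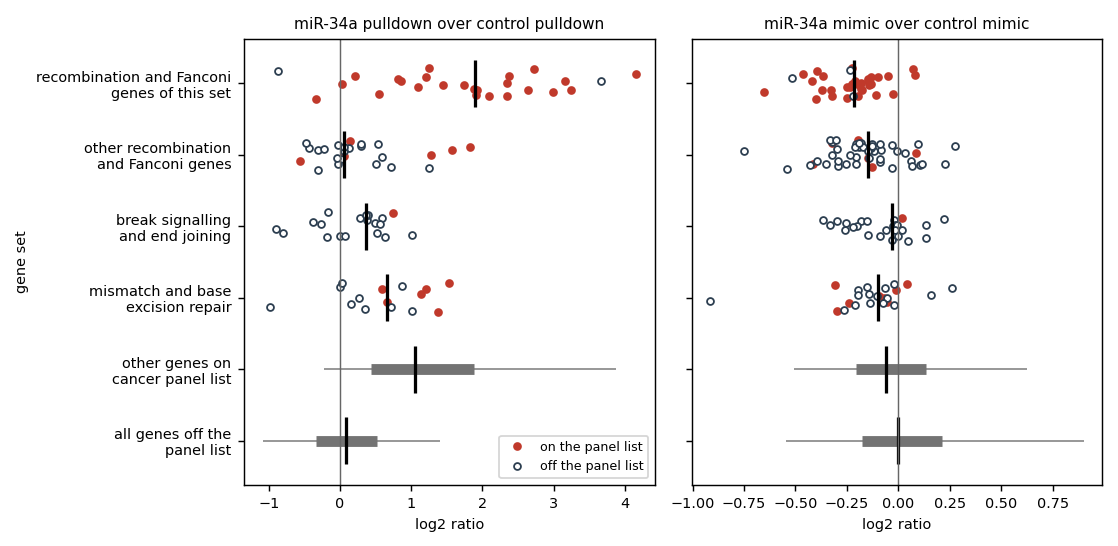
Log2 ratios by gene set for the miR-34a pulldown over the control pulldown (left) and the miR-34a mimic over the control mimic (right), genes with at least 20 reads; filled points are on the cancer panel list, open points are off it, black bars are medians, and the lower 2 rows show quartiles (thick) and the 5th to 95th percentiles (thin). In the pulldown the set and the other panel genes lie to the right of genes off the list, and with the mimic the medians of both recombination sets lie left of 0.

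Membership in the authors' UTR tables, a subset of transcripts with no stated criterion in the sources used here, was also compared. It held 12 of 34 members, or 35.3%, against 25.8% of all measured genes. The 12 had a median mimic log2 ratio of -0.24 and the other 22 of -0.18. In the pulldown 8 measured members of the subset had a median of 2.01 and the other 18 of 1.35. BRCA1, BARD1, ATM, ATR, FANCD2 and SLX4 are in the subset, while BRCA2, BRIP1 and ATAD5, the members lowest with the mimic, are not.

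Promoters were searched because many of these genes are known E2F targets and most stood lower with the mimic. RefSeq promoters on GRCh38.p14, 250 bases before to 50 after the start, were available for 30 members. The E2F words TTTCCCGC, TTTGGCGC, TTTCGCGC and TTTGCCGC were sought on both strands, as was the CCAAT box, which none of them contains. An E2F word was found in 5 of 30 members, or 16.7%, and in 3.33% of all 27305 promoters. CCAAT was found in 36.7% of the members and 35.7% of all. The 3 members whose most upstream word lies near the start site are shown, in 30 bases. The word is in capitals as it reads on the gene's strand.
FANCD2, chr3:10026424-10026453, plus strand: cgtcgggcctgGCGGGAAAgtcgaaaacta
XRCC2, chr7:152676102-152676131, minus strand: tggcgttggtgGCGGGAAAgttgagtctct
EXO1, chr1:241848197-241848226, plus strand: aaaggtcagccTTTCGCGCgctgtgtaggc
FANCD2 and XRCC2 carry the same word, on the opposite strand, and had mimic log2 ratios of -0.42 and -0.36. The other members with a word, FANCA, EXO1 and FANCC, were at -0.24, -0.22 and -0.19, and the median of the set was -0.22. Whether a word goes with the mimic ratio was not tested. FANCA held 1 word further upstream, and FANCC held 2, of which only the more upstream was located. BRCA2, BRIP1 and ATM held none of the E2F words in the window. BRIP1 and ATM held CCAAT. A match is a description of the letters, not a binding site.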

How the data were processed

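RNA was sequenced from 1 library in each of 4 HEK293T groups. The authors deposited whole-number read counts per RefSeq transcript and an RPKM value beside each; Bowtie2, edgeR and hg38 stand in the submitters' processing notes, without version or role. How shared and antisense reads were counted is not stated in the sources used here; 12 found members overlap another coding gene and 5 have a named pseudogene. The length behind the deposited RPKM was 1 value for all transcripts of each of 16 members with several, and TTN, a very long transcript, lay at 0.583 of the median, so levels were not compared between genes and RPKM served only as an alternative scaling. Counts of 2 to 9 reads were even in 96.3% of miR-34a and 96.0% of control values of the mimic table, and in 61.7% and 73.5% in the pulldown, where no excess was left at 10 to 49 reads (51.0% and 52.3%). Intervals of both comparisons used counts divided by 2, which widens them.

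Reads were summed per gene name and scaled by TMM (edgeR 4.0.16, R 4.3.3). Measured genes had at least 20 reads over both libraries, and ratios carry exact conditional binomial (Clopper-Pearson) 95% intervals (scipy 1.17.1), and intervals of summed RPM are exact Poisson. They cover counting error only; the functions were tested on simulated data. Members, lists, folds and alternatives were chosen with earlier results of these data known. All members are named. Full values go to those called or beyond counting error in the pulldown and to the 12 farthest from 0 with the mimic. Of other lists, genes past 2-fold and counting error in the pulldown and the 3 farthest from 0 with the mimic are named; USP1, MAD2L2, PARP1, PARP2 and TRRAP were added after their values were seen. A few list genes are left out of the text.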

Additional observations from a re-analysis of the deposited data

How the results depend on the processing

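Of 90 recomputed counts and medians, 79 stayed close to the reported value. On deposited RPKM, where the median gene lay at -0.65 with the mimic and 0.38 in the pulldown, 34 of 34 members were called lower, the mimic median was -0.86 and 21 members were in both sets by fold; such scaling shifts every gene alike. With a 99% interval 9 members were in both sets by interval. At least 10 control reads gave 6 members called higher, 6 beyond counting error and 1 and 6 in both sets by fold and by interval. A 4-fold rule left 11 higher members, a 1.1-fold rule gave 26 lower members and a 1.5-fold rule 1. Of 238 gene ratios under settings that can change a ratio, 203 stayed within their interval; the others were the 34 mimic ratios on RPKM and BRCA1 on 1 transcript. No direction of a called gene reversed under any alternative run. Recovery was recomputed on TMM-scaled totals, on the most-read transcript and with the read minimum, not on RPKM. No paired analysis was possible because each group has 1 library, and leaving out a replicate could not be run. Depth limits the pulldown: 17 of 30 members had fewer than 10 control reads.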

Other observations

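Mismatch and base excision repair genes, which correct copying errors and damaged bases, were read beside the recombination genes. In the pulldown 15 of 24 had at least 20 reads, with a median log2 ratio of 0.66. Of these 5 (33.3%) were called higher and 0 lower, against 12.3% and 5.74% of all measured genes. The uracil glycosylase gene UNG was called, with 108 reads in the miR-34a pulldown and 31 in the control pulldown, with an interval of 0.17 to 1.92. Of 6 measured genes on the panel list 4 were called, and of 9 others 1. With the mimic 21 of 24 lay below 0, with a median of -0.10. Called lower was 1 (4.17%), against 12.6% of all measured genes. MLH3 was the farthest from 0, at -0.91 [-2.04 to 0.14] with 24 reads with the miR-34a mimic and 49 with the control mimic. PMS1 stood at -0.30 [-0.48 to -0.12].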
